A study of Mus musculus with 17 samples.

Results

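The step from spermatogonia (SPG) to pre-leptotene spermatocytes (PreL) was described here in mice whose germ cells carry a deleted *Nat10*, to see which transcripts still changed at meiotic entry. RNA-seq libraries had been made from SPG, PreL and later spermatocytes of WT and *Nat10*-SKO males on the C57BL/6 strain, given as C57BL/6J in the methods of the study. The comparison used 3 SKO PreL libraries (numbers 1, 2 and 3) and 3 SKO SPG libraries (numbers 1, 3 and 4), 6 of the 17 libraries of the series. The 6 WT libraries of the same stages, 3 of SPG (numbers 1, 2 and 3) and 3 of PreL (numbers 1, 2 and 4), were used for comparison. The genes tested were chosen by depth alone, as those averaging 10 or more reads over the 6 SKO libraries. This kept 12882 of the 23282 genes listed. The genes named below were picked by other rules, many by their change and some after their values were seen. SKO mice carry 1 floxed and 1 null *Nat10* allele and a Cre knocked into the *Stra8* gene, so that *Nat10* is cut only once germ cells express *Stra8*. The other group is labelled as wild type, and the labels do not describe its alleles further. Cells were separated by FACS. The methods of the study describe a gate on Hoechst and propidium iodide fluorescence, on DNA and chromatin and not on a surface protein. They name it for leptotene/zygotene and later cells, not for SPG or PreL. The study counted the purity of sorted PreL cells by immunofluorescence and lists no such count for sorted SPG. The age of the mice and the number of animals behind each library were not given in the sources used here, and p-values therefore measured the spread between these samples, which may be technical.

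NAT10 is an enzyme that acetylates cytidine in RNA, in 18S ribosomal RNA and tRNA among others, and has a part in ribosome biogenesis. In the testis, retinoic acid turns on *Stra8* in differentiating spermatogonia, and STRA8 with MEIOSIN then activates the genes of meiotic prophase while the cell makes its last round of DNA replication. The products of these genes build the chromosome axis and the synaptonemal complex, cut DNA and repair the breaks by recombination, and tether telomeres to the nuclear envelope.

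The 6 SKO libraries held between 9885136 and 11913179 reads assigned to genes. *Nat10* was measured first, as the check of the genotype. It had 159, 197 and 269 reads in SKO SPG 1, 3 and 4 and 168, 160 and 114 reads in SKO PreL 1, 2 and 3. The WT libraries had 350 to 485 reads in SPG and 248 to 385 in PreL, so both SKO stages kept *Nat10* reads at a lower level. The Cre removes only some exons, while reads were counted over the whole gene. Transcripts of a cut allele may thus still be counted, and how much intact *Nat10* remained was not tested. The log2 fold change of *Nat10* between the SKO stages was -0.51 (SE 0.26, limma adjusted p = 0.272). Germ cell identity was high in all 6 libraries. *Ddx4*, a germ cell RNA helicase, had 4161 to 4616 reads in SKO SPG and 5610 to 5771 in SKO PreL, and *Dazl*, a germ cell RNA-binding protein, had 22907 to 31058 and 29613 to 35175.

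The deposited values were calibrated with ERCC spike-in RNA, which makes the total of a library an estimate of messenger RNA per cell input. This total was 24592377 ± 2897567 (SD, n = 3) in SKO PreL and 11889770 ± 1496313 (SD, n = 3) in SKO SPG, a ratio of 2.07. The lowest PreL total, 22518162, was above the highest SPG total, 13467072, and the exact permutation test gave p = 0.1, the smallest that 3 libraries against 3 allow (two-sided). Without the 100 genes of highest mean the SKO ratio was 2.06. The ratio of the full totals in WT was 1.08 (exact permutation p = 0.4). The recovered reads, before calibration, had a ratio of 1.04. All log2 fold changes below were computed after division by library size factors, and therefore state changes relative to the bulk of the transcripts, whose median log2 fold change was 0.03. On the calibrated scale that median was 1.01.

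Transcripts of other cell types moved with the stage and set SKO PreL 3 apart from SKO PreL 1 and 2. The summed level of 14 Sertoli cell genes was 1130 and 1320 RPM (reads per 1000000 reads assigned to genes) in SKO PreL 1 and 2, but 99.2 in SKO PreL 3 and 70.2 to 115 in SKO SPG. Leydig cell genes summed to 515 and 826 RPM in SKO PreL 1 and 2, 103 in SKO PreL 3 and 148 to 404 in SKO SPG. Fibroblast genes went the other way, from 379 to 707 RPM in SKO SPG to 61.9 to 225 in SKO PreL. Amh, a Sertoli cell hormone of the young testis, had at most 3 reads in every library. Spermatid genes were near absent from both SKO stages, at 6.68 to 15.3 RPM in SPG and 14.7 to 21.7 in PreL, against 161 to 444 and 751 to 1250 in the WT libraries. In such sorted bulk samples, fewer cells of a type and less RNA per cell cannot be told apart.

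**Figure D1:**
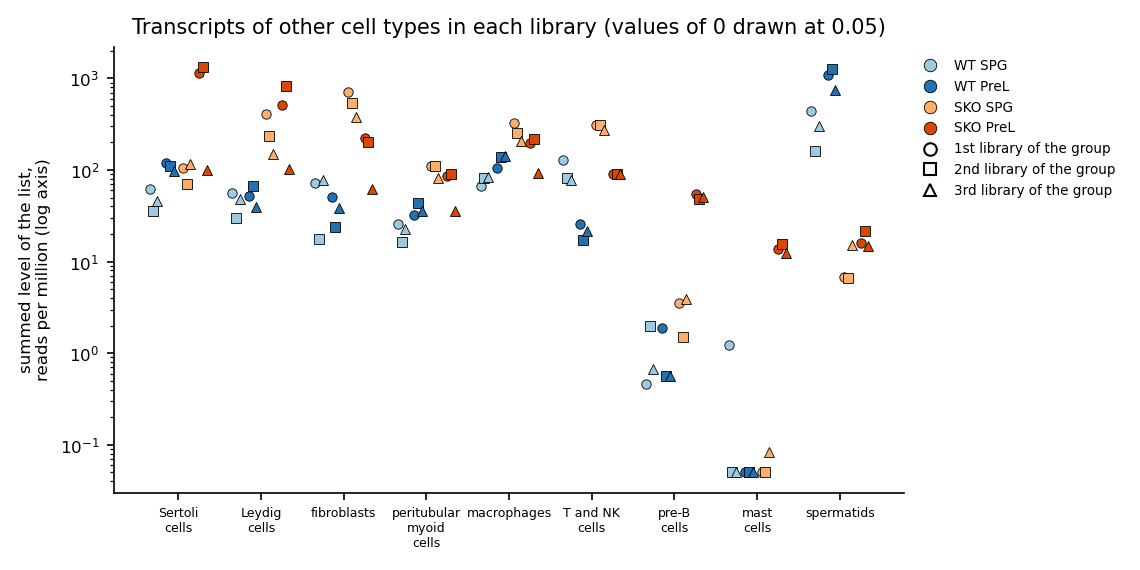
Summed level of marker gene lists of other cell types in each SPG and PreL library of both genotypes, in RPM on a log axis, where a sum of 0 is drawn at 0.05. Sertoli cell genes stood at 1130 and 1320 in SKO PreL 1 and 2 and at 99.2 in SKO PreL 3, and pre-B cell genes at 47.7 to 55 in all 3 SKO PreL libraries.

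In SKO, 210 genes rose and 123 fell from SPG to PreL, 1.63% and 0.955% of the 12882 tested. A gene was called where the limma adjusted p was under 0.05 and the log2 fold change, on the log2(rescaled value + 10) scale, was above 1 or below -1. All of the 210 and all of the 123 had no overlap between the 3 SPG and the 3 PreL libraries. The selection by adjusted p and fold largely entails this, so it adds no support to the calls. Genes that were not called, such as *Dmc1* and *Cenpa*, had no overlap either. Leaving out SKO PreL 3 raised the number higher to 366, and leaving out SKO PreL 1 lowered it to 61. The number higher was 134 without SKO PreL 2, 100 without SKO SPG 1, 81 without SKO SPG 3 and 132 without SKO SPG 4. The number lower was 47 without SKO PreL 1, 76 without SKO PreL 2, 118 without SKO PreL 3, 42 without SKO SPG 1, 54 without SKO SPG 3 and 72 without SKO SPG 4. With SKO PreL 3 as the PreL library alone, assumed to vary like the SPG libraries, an alternative chosen after seeing the data, 95 genes were higher and 61 lower, of which 47 and 35 were among the calls above. A smaller set of 37 higher and 26 lower genes kept its call in all 6 fits that left out 1 library, and was used below as a measure of how much a call rested on single libraries. The level of SKO PreL 3 was less than 0.5 times the lower of SKO PreL 1 and 2 for 47 of the 210 higher genes (22.4%) and for 1640 of all tested genes (12.7%).

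**Figure D2:**
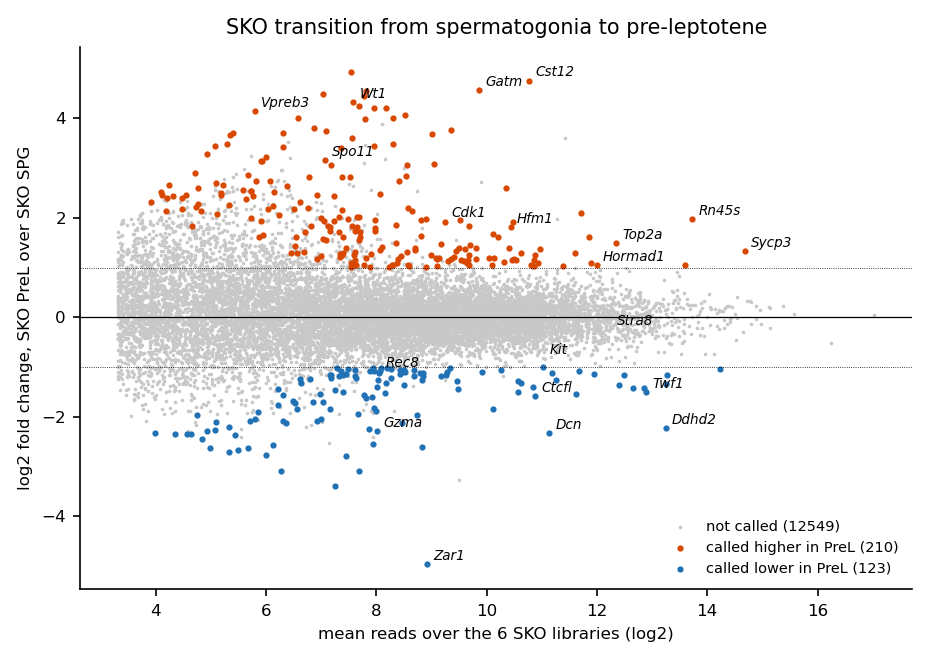
Each point is 1 of the 12882 genes tested in the SKO transition, with the mean level on the horizontal axis and the log2 fold change of PreL over SPG on the vertical axis. The 210 higher and 123 lower genes are coloured, with log2 fold changes above 1 and below -1.

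Structural proteins of meiotic chromosomes were among the genes that rose in SKO PreL. Of 14 tested genes of the chromosome axis and synaptonemal complex, 3 rose, 1 fell and 10 were not called. Over all tested genes 1.63% rose and 0.955% fell. The median log2 fold change of the 14 was 0.64, against 0.03 over all tested genes. *Sycp3*, the core protein of the axial element, had 14403, 12578 and 16674 reads in SKO SPG 1, 3 and 4 and 39323, 30932 and 43165 in SKO PreL 1, 2 and 3. Each PreL library was well above each SPG library, and the log2 fold change was 1.33 (SE 0.17, adjusted p = 0.00533), with a call in 6 of 6 fits that left out a library. The exons of *Sycp3* overlap those of *Chpt1* on the opposite strand, and the libraries kept no strand. *Hormad1*, an axis protein that promotes DNA breaks and monitors synapsis, had 2723, 2205 and 2839 reads in SPG and 5521, 4444 and 6798 in PreL, a log2 fold change of 1.05 (SE 0.18, adjusted p = 0.0131, called in 2 of 6 fits). *Syce3*, a central element protein, rose by 1.08 (SE 0.20, adjusted p = 0.0153, called in 1 of 6 fits). *Tex12*, its partner in the central element, had a log2 fold change of 0.99 (adjusted p = 0.00783), short of the fold threshold, and *Sycp1*, the transverse filament protein, had 0.32 (adjusted p = 0.241). *Rec8*, a meiotic cohesin subunit, fell by 1.09 on the log2 scale (SE 0.25, adjusted p = 0.0358, called in 1 of 6 fits). Its reads were 411, 337 and 336 in SPG and 137, 172 and 212 in PreL, while on the calibrated scale its log2 fold change was -0.08 (adjusted p = 0.829). *Hormad1* lost its call without SKO SPG 1, SPG 3, SPG 4 or PreL 3 (adjusted p up to 0.0631), *Syce3* without any library but SKO PreL 2 (up to 0.0634) and *Rec8* without any but SKO PreL 3 (up to 0.154).

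In the 120 bases before the RefSeq start site, *Sycp3* and *Hormad1* each held a pair of matches to the E-box CACGTG, and *Hormad1* also held a match to the E2F motif GCGGGAA. These stretches (GRCm38.p6, plus strand) are shown because both genes of the chromosome axis rose in SKO PreL, and they were picked after the matches were seen. Of the other meiotic genes that rose, *Syce3*, *Gm960*, *Msh5*, *Hfm1*, *Ccdc79* and *Spdya* held no E-box in their RefSeq promoters. For *Spo11* and *Meiob* no promoter was matched. Capitals mark every match to the E-box, to the E2F motif or to the GC box GGGCGG on either strand. The *Sycp3* stretch is chr10:88459467-88459586 and the *Hormad1* stretch chr3:95559557-95559676.
Sycp3: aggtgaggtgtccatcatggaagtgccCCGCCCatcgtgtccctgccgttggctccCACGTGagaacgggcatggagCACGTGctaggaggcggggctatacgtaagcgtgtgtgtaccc
Hormad1: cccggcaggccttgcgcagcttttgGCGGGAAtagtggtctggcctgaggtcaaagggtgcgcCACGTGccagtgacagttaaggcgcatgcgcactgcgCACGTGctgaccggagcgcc
Of all 27025 promoters in the RefSeq table, each with 250 bases before and 50 after the start site, 8.09% held the E-box, 5.29% the E2F motif and 38.2% the GC box on either strand. Promoters were matched for 79.6% of all tested genes, 79.5% of the 210 higher and 70.7% of the 123 lower genes. Among those matched, the E-box was held by 6.59% of the higher, 11.5% of the lower and 12% of all tested genes, and the E2F motif by 13.8%, 11.5% and 10.1%. These shares were not tested, because under 80% of each set was matched, and the pair of promoters shown does not stand for the genes that rose. A match describes the letters and is not a binding site.

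Some genes of DNA break formation and recombination also rose. Of 25 tested genes, 5 rose, 0 fell and 20 were not called, while 1.63% of all tested genes rose and 0.955% fell. The median log2 fold change of the 25 was 0.46, against 0.03 over all tested genes. *Meiob*, listed as *4930528F23Rik*, encodes a single-strand DNA binding protein of meiotic recombination. It had 99, 88 and 39 reads in SPG and 631, 491 and 920 in PreL, and rose by 3.06 on the log2 scale (SE 0.40, adjusted p = 0.00614, called in 6 of 6 fits). *Hfm1*, a helicase needed for crossovers, had 479, 479 and 820 reads in SPG and 2090, 1555 and 2881 in PreL (log2 fold change 1.82, SE 0.26, adjusted p = 0.00649, called in 6 of 6 fits). *Spo11*, which cuts DNA to start recombination, had 0, 24 and 75 reads in SPG and 191, 163 and 357 in PreL. The SPG libraries themselves differed, and its log2 fold change of 3.16 (SE 0.76, adjusted p = 0.0423) was called in 1 of 6 fits. Its partner *Top6bl*, listed as *Gm960*, rose by 1.26 (adjusted p = 0.0393, called in 1 of 6 fits) and *Msh5*, a crossover factor, by 1.61 (adjusted p = 0.018, called in 3 of 6 fits). *Dmc1*, the meiotic recombinase, had 1572, 1248 and 1701 reads in SPG and 2175, 1972 and 2886 in PreL, a log2 fold change of 0.58 (adjusted p = 0.0849). *Prdm9*, a histone methyltransferase that marks recombination sites, had a log2 fold change of 0.47 (adjusted p = 0.233). *Spo11* lost its call without any library but SKO SPG 4 (adjusted p up to 0.0984), *Gm960* without any but SKO PreL 2 (up to 0.15), and *Msh5* without SKO SPG 3, SPG 4 or PreL 1 (up to 0.0636).

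Telomere genes were measured next. Over all tested genes 1.63% rose, and of 5 tested genes of meiotic telomere attachment 1 did, *Terb1*, listed as *Ccdc79*. It encodes a protein that joins telomeres to the nuclear envelope, and had 475, 106 and 384 reads in SPG and 1275, 746 and 1428 in PreL (log2 fold change 1.97, SE 0.45, adjusted p = 0.0356, called in 2 of 6 fits). That call was lost without SKO SPG 3, SPG 4, PreL 1 or PreL 3 (adjusted p up to 0.0968). *Spdya*, an activator of CDK2 at meiotic telomeres, was named after its values were seen. It had 342, 297 and 365 reads in SPG and 1235, 914 and 1742 in PreL, and rose by 1.84 (SE 0.24, adjusted p = 0.00614, called in 6 of 6 fits). Its exons overlap those of *Trmt61b*. These genes did not share the split of the SKO PreL libraries seen for Sertoli cell genes: SKO PreL 3 was the highest of the 3 for *Sycp3*, *Hormad1*, *Meiob*, *Hfm1*, *Spo11* and *Spdya*.

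**Figure D3:**
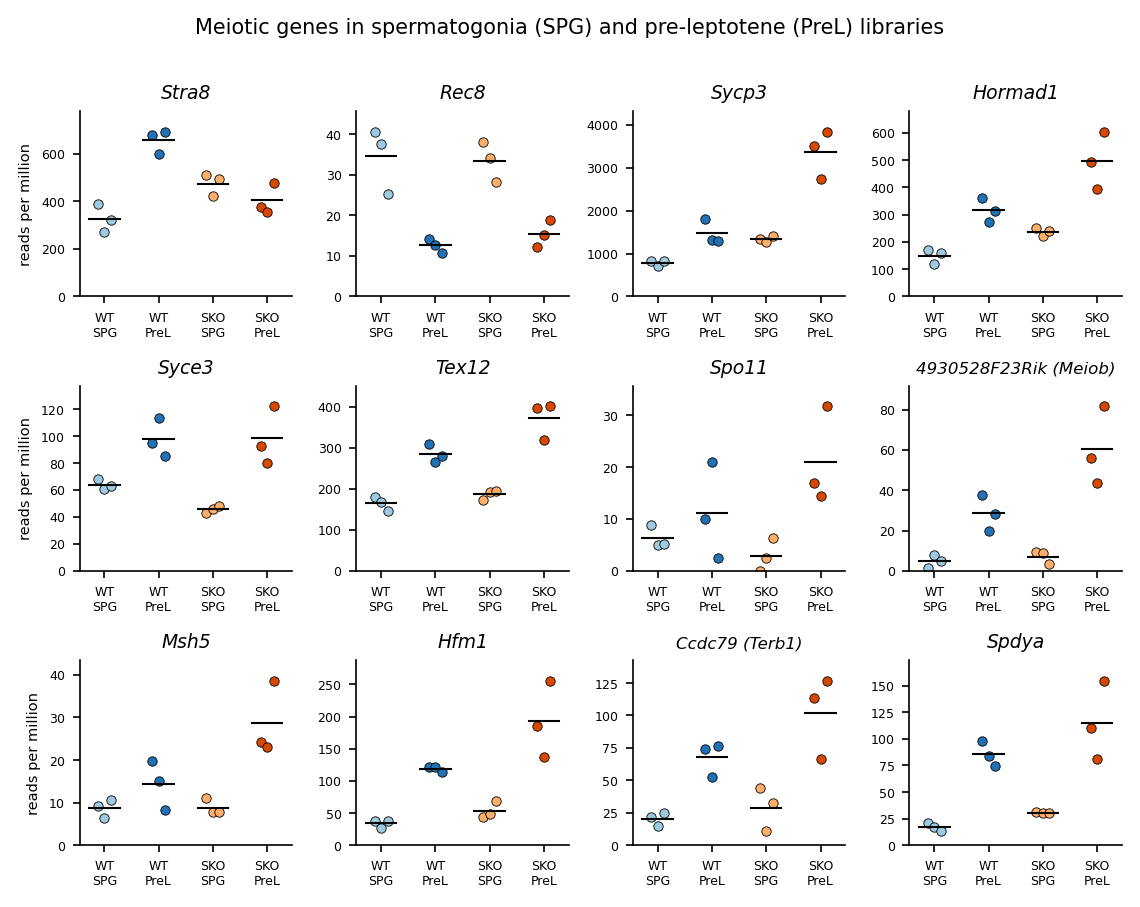
RPM of meiotic genes in each library (dots) with the group mean (line), for SPG and PreL of WT and SKO mice, on linear axes from 0. For *Sycp3*, *Meiob*, *Hfm1* and *Spdya* every SKO PreL library lies above every SKO SPG library.

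Regulators of meiotic entry were called in neither direction. Of 16 tested genes of that list 0 were called by limma, edgeR or DESeq2, and the median log2 fold change was 0.32. An unadjusted limma p under 0.05 was found for 8 of the 16, beside 2999 of all 12882 tested genes. *Stra8* had 5497, 4150 and 5884 reads in SKO SPG and 4220, 4014 and 5370 in SKO PreL, values that overlapped, with a log2 fold change of -0.23 (SE 0.16, adjusted p = 0.426). The SKO mice carry the Cre knocked into *Stra8*, and how reads of that allele were counted was not tested. On the calibrated scale the log2 fold change of *Stra8* was 0.81 (adjusted p = 0.00143). *Ythdc2*, an RNA helicase required for meiotic entry, had 1198, 799 and 1142 reads in SPG and 1823, 1491 and 2204 in PreL (log2 fold change 0.77, adjusted p = 0.0488, short of the fold threshold). Its partner *Meioc*, listed as *Gm1564*, had a log2 fold change of 0.24 (adjusted p = 0.488). *Meiosin* was not analysed here.

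Spermatogonial genes were called in neither direction. *Kit*, the receptor of differentiating spermatogonia, had 2490, 2203 and 3245 reads in SKO SPG and 1524, 1647 and 1412 in SKO PreL, without overlap, and a log2 fold change of -0.82 (SE 0.12, adjusted p = 0.00649) that stayed inside the fold threshold. On the calibrated scale it was 0.22 (adjusted p = 0.358). *Dmrt1*, a transcription factor that holds back meiosis in spermatogonia, had a log2 fold change of -0.52 (adjusted p = 0.0279), and 0.52 on the calibrated scale. *Sohlh1* and *Sohlh2*, transcription factors of spermatogonial differentiation, had -0.45 and -0.42, and 0.58 and 0.62 on the calibrated scale. Over the 11 tested genes of differentiating spermatogonia the median was -0.42, with 0 called by limma, edgeR or DESeq2 and 6 at an unadjusted p under 0.05. Over the 16 tested genes of undifferentiated spermatogonia the median was 0.84, with 0 called by limma, 0 by edgeR, 1 by DESeq2 and 3 at an unadjusted p under 0.05. Of all 12882 tested genes, 2999 had such an unadjusted p. *Zbtb16*, the PLZF protein of stem and progenitor cells, had 45, 8 and 52 reads in SPG and 49, 116 and 29 in PreL, and *Gfra1*, the GDNF receptor, had at most 33 reads in any of these libraries, so the depth behind these genes was low.

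Cell cycle genes gave the next group. Among 32 tested genes of G2 and M phase, 5 rose, 0 fell and 27 were not called. Over all tested genes 1.63% rose and 0.955% fell. The median log2 fold change of the 32 was 0.64, against 0.03 over all tested genes, and 31 of the 32 values were above 0. *Cdk1*, the kinase that drives entry into division, had 221, 197 and 322 reads in SKO SPG and 847, 1021 and 1037 in SKO PreL, and rose by 1.93 on the log2 scale. *Aurkb*, a kinase of the chromosomal passenger complex, had 96, 71 and 56 reads in SPG and 245, 404 and 338 in PreL, and rose by 2.01. *Top2a*, the topoisomerase of replicated chromosomes, had 2666, 2403 and 2855 reads in SPG and 7332, 6543 and 9338 in PreL, and rose by 1.49. All 3 were called in 6 of 6 fits, as was *Bub1*, a spindle checkpoint kinase that rose by 1.30. *Nuf2*, a kinetochore protein, rose by 1.17 (adjusted p = 0.0499), was called in 1 of 6 fits and lost its call without any library but SKO SPG 4 (adjusted p up to 0.131). *Esco2*, the acetyltransferase that locks cohesin on replicated DNA, was named after its values were seen. It had 1529, 1484 and 2435 reads in SPG and 5982, 4694 and 6256 in PreL, and rose by 1.61 (adjusted p = 0.0033, called in 6 of 6 fits).

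DNA replication genes did not stand out from all tested genes. Of 45 tested genes, 1 rose and 0 fell, beside 1.63% and 0.955% of all tested genes. The median log2 fold change of 0.03 was that of all tested genes. The gene that rose was *Pola1*, the catalytic subunit of DNA polymerase alpha, with 96, 83 and 92 reads in SPG and 227, 216 and 258 in PreL (log2 fold change 1.26, adjusted p = 0.0246, called in 0 of 6 fits, with adjusted p from 0.0531 to 0.12). Histone genes were listed after their values were seen, so their count supports nothing. All 5 of them rose. *Hist1h4c*, a histone H4 gene, had 12, 20 and 16 reads in SPG and 131, 121 and 123 in PreL, and rose by 2.52 (adjusted p = 0.0089, called in 5 of 6 fits). *H2afx*, the histone variant phosphorylated at DNA breaks, had 73, 45 and 86 reads in SPG and 233, 307 and 329 in PreL, and rose by 1.98 (adjusted p = 0.00783, called in 6 of 6 fits). *Hist1h2ba*, a testis histone H2B gene, had 34, 41 and 26 reads in SPG and 218, 153 and 181 in PreL, and rose by 2.20 (adjusted p = 0.0108). Both *Hist1h4c* and *Hist1h2ba* lost their call without SKO PreL 1 (adjusted p = 0.0606 and 0.069), and *Hist1h1a*, a linker histone gene, was called in 0 of 6 fits. Messenger RNA of most replication histones has no poly(A) tail, and the libraries were primed with oligo(dT).

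*Ddhd2*, *Ctcfl*, *Twf1* and *Golt1b* were abundant genes that fell. *Ddhd2*, a phospholipase, had 17634, 11974 and 18230 reads in SKO SPG and 2993, 3205 and 4244 in SKO PreL. It fell by 2.23 on the log2 scale (SE 0.18, adjusted p = 0.00212), was called in 6 of 6 fits and fell by 1.19 on the calibrated scale as well. Its exons overlap those of Gm17484 on the opposite strand. *Ctcfl*, a testis paralogue of the insulator protein CTCF, had 3024, 2424 and 2966 reads in SPG and 749, 943 and 1249 in PreL (log2 fold change -1.58, SE 0.20, adjusted p = 0.00514, called in 6 of 6 fits). *Twf1*, an actin-binding protein, had 13041, 9637 and 10682 reads in SPG and 3981, 3466 and 4752 in PreL, and fell by 1.50. *Golt1b*, a protein of Golgi transport, had 9634, 8386 and 9952 reads in SPG and 3504, 3130 and 4153 in PreL, and fell by 1.43. The 3 genes *Ctcfl*, *Twf1* and *Golt1b*, with *Inpp4a*, were named after their values were seen. *Inpp4a*, a phosphoinositide phosphatase, had 1914, 1368 and 1863 reads in SPG and 477, 345 and 697 in PreL, and fell by 1.83. *Zar1*, an RNA-binding protein best known from oocytes, had 384, 2181 and 313 reads in SPG and 11, 19 and 15 in PreL, the largest fall among genes averaging 100 or more reads (log2 fold change -4.97, called in 6 of 6 fits). SKO SPG 3 stood far above the other SPG libraries for *Zar1*. *Cyp26b1*, an enzyme that breaks down retinoic acid and is also made by somatic cells of the testis, had 559, 259 and 341 reads in SPG and 100, 106 and 38 in PreL, and fell by 2.25 (called in 5 of 6 fits, adjusted p = 0.0551 without SKO SPG 1). It was the 1 called gene among 16 tested genes of retinoic acid signalling, while 0.955% of all tested genes fell.

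Each of the next fixed lists held at most 1 gene called by limma. Over all 12882 tested genes 1.63% rose and 0.955% fell, so counts this small describe single genes and not the lists. *Rrn3*, a factor that recruits RNA polymerase I to ribosomal DNA, was the 1 called gene among 32 tested genes of NAT10 partners and ribosome biogenesis, whose median was -0.09. It had 9210, 7007 and 7517 reads in SKO SPG and 3090, 3468 and 4412 in SKO PreL, and fell by 1.16, while its log2 fold change on the calibrated scale was -0.12 (adjusted p = 0.526). Of 19 tested PIWI and piRNA genes, *Mybl1*, the A-MYB transcription factor of pachytene piRNA and meiotic genes, rose by 2.18 (adjusted p = 0.0446, called in 2 of 6 fits), with 56, 17 and 15 reads in SPG and 133, 90 and 234 in PreL. Of 15 tested late spermatocyte genes, *Hspa2*, a testis-enriched chaperone, rose by 1.24 (adjusted p = 0.0284, called in 2 of 6 fits), and the median of the list was -0.73. Of 21 p53 targets and apoptosis genes, *Plk2*, a p53-induced kinase, rose by 1.40, and of 14 genes of the integrated stress response, *Cth*, an enzyme of cysteine synthesis, rose by 2.18. Both were called in 0 of 6 fits, with adjusted p up to 0.154 and 0.253. *Mybl1* and *Hspa2* lost their calls without SKO SPG 3, SPG 4, PreL 1 or PreL 3, with adjusted p up to 0.138 and 0.0905. Of 21 genes of PRC1.6 and related repressors of germline genes and of 19 of cholesterol synthesis, 0 were called by limma or edgeR and 0 and 1 by DESeq2, with 2 and 3 at an unadjusted p under 0.05 and medians of 0.00 and 0.12. Such an unadjusted p was reached by 2999 of the 12882 tested genes.

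The largest rises by fold change were of genes high in SKO PreL 1 and 2. The 10 largest rises among genes averaging 100 or more reads were those of *8030411F24Rik*, *Cst12*, *Gatm*, *4933402E13Rik*, *Clec12b*, *Tsx*, *Wt1*, *1700018G05Rik*, *1700011M02Rik* and *Etd*, between 4.21 and 4.94 on the log2 scale, and in each of them SKO PreL 3 was the lowest PreL library. Of the 10, only *8030411F24Rik* was called in all 6 fits that left out a library. The other 9 each lost their call without 2 or more of the libraries SKO SPG 1, SPG 3, SPG 4, PreL 1 and PreL 2, with adjusted p up to 0.0986, for *Etd*. *Wt1*, a transcription factor of Sertoli cells, had 2, 0 and 52 reads in SKO SPG and 482, 523 and 94 in SKO PreL. *Cst12*, a cystatin gene, had 100, 61 and 44 reads in SPG and 4530, 5482 and 315 in PreL. Over all tested genes 1.63% rose and 0.955% fell. Of 13 tested Sertoli cell genes 6 rose and 0 fell, with 11 rising when SKO PreL 3 was left out, and 0 rising with SKO PreL 3 as the PreL library alone. Leaving out SKO PreL 1, SKO PreL 2, SKO SPG 1 or SKO SPG 3 also gave 0, and leaving out SKO SPG 4 gave 2. Of 13 tested Leydig cell genes 0 were called by limma or edgeR and 1 by DESeq2. An unadjusted p under 0.05 was found for 3 of the 13, beside 2999 of all 12882 tested genes. Thus for these genes SKO PreL 1 and 2 were high. The summed Sertoli cell level of SKO PreL 3, 99.2 RPM, lay within the 70.2 to 115 of the SPG libraries. For the 10 largest rises, chosen for having no overlap, SKO PreL 3 was still above every SPG library. The part of other cells in each call was not tested.

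Some fibroblast and myoid genes fell, while 0.955% of all tested genes did. Of 10 tested fibroblast genes 4 fell, with a median log2 fold change of -1.45. *Dcn*, a proteoglycan of connective tissue, had 4694, 3317 and 2803 reads in SKO SPG and 1349, 1124 and 245 in SKO PreL, and fell by 2.32 (adjusted p = 0.0277, called in 3 of 6 fits, with adjusted p up to 0.0996 without an SPG library). Leaving out SKO SPG 3 or SKO SPG 4 left 0 of the list called, leaving out SKO SPG 1 left 1, and leaving out SKO PreL 1 left 2. Of 6 tested myoid genes 2 fell, *Acta2* and *Myh11*, the smooth muscle actin and myosin, and edgeR called 1. *Acta2* lost its call without SKO SPG 1 or SPG 3 (adjusted p up to 0.0784) and *Myh11* without any library but SKO PreL 2 (up to 0.132). Of 14 immediate early genes 1 fell, *Fosb*, with 459, 312 and 389 reads in SPG and 121, 153 and 65 in PreL. Immediate early genes are known to be induced when tissue is dissociated. Macrophage and endothelial genes, 14 and 3 tested, had 0 called by limma, edgeR or DESeq2. Of them 4 and 0 had an unadjusted p under 0.05, beside 2999 of all 12882 tested genes.

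Blood cell genes moved in all 3 SKO PreL libraries alike. The lists of pre-B, mast, T and NK cell genes were written after their values were seen, so their counts support nothing. All 8 tested pre-B cell genes rose. The sum over all 10 listed pre-B cell genes was 1.52 to 3.95 RPM in SKO SPG and 55, 47.7 and 51.2 in SKO PreL 1, 2 and 3. *Vpreb3*, a pre-B cell receptor component, had 0, 0 and 0 reads in SPG and 102, 111 and 120 in PreL, at least 35.8-fold higher against a floor of 3 reads per library. *Igll1*, of the surrogate light chain, had 0, 0 and 1 reads in SPG and 97, 90 and 67 in PreL, at least 27.1-fold higher. Mast cell genes rose likewise: *Cma1*, the mast cell chymase, had 0, 0 and 0 reads in SPG and 66, 86 and 50 in PreL, at least 21.4-fold higher, and *Cpa3*, a mast cell carboxypeptidase, was at least 19.5-fold higher. T and NK cell genes fell, 9 of 12 tested, from 271 to 313 summed RPM in SKO SPG to 89.6 to 91.1 in SKO PreL. *Ccl5*, a chemokine of these cells, had 448, 634 and 623 reads in SPG and 135, 201 and 75 in PreL, and fell by 2.13 (adjusted p = 0.00649, called in 6 of 6 fits). *Gzma*, a granzyme of cytotoxic cells, fell by 2.28 (adjusted p = 0.0226, called in 3 of 6 fits, lost without SKO SPG 3, SPG 4 or PreL 1 with adjusted p up to 0.0852). In WT the pre-B cell sum was at most 1.98 RPM in every library, and the T and NK cell sum fell from between 78.5 and 128 in SPG to between 17.2 and 26 in PreL.

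Ribosomal RNA precursor reads rose with the stage in SKO. *Rn45s*, the 45S precursor of ribosomal RNA, had 5589, 4068 and 6303 reads in SKO SPG and 15037, 23011 and 27674 in SKO PreL, and rose by 1.97 on the log2 scale (SE 0.22, adjusted p = 0.0033, called in 6 of 6 fits). In WT it had 13007, 5674 and 7863 reads in SPG and 10070, 5565 and 6313 in PreL, and a log2 fold change of -0.01 (adjusted p = 0.977). *Lars2*, the mitochondrial leucyl-tRNA synthetase, and *Gm20594* rose by 2.1 and 1.67 in SKO (both called in 6 of 6 fits) and had 0.19 and 0.23 in WT. Whether the reads counted for *Lars2* and *Gm20594* come from ribosomal RNA sequence was not tested. These 3 entries were singled out after their values were seen. Precursor ribosomal RNA is not polyadenylated for the most part, so its reads in oligo(dT)-primed libraries also depend on how it was primed, which was not tested.

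In WT, 322 genes rose and 153 fell from SPG to PreL, 2.54% and 1.21% of 12657 tested. Of the 11790 genes tested in both genotypes, 52 rose in both, which was 27.7% of the 188 SKO rises tested in WT and 21.4% of the 243 WT rises tested in SKO. Another 19 fell in both, 18.8% of 101 and 12.5% of 152. Among the 37 rises that were called in all 6 fits, 17 also rose in WT, and among the 26 such falls 12 also fell in WT. Of the 37, *Igll1*, *Pou2af1* and *Vpreb3* were not tested in WT. *Sycp3* had a log2 fold change of 0.92 in WT, short of the fold threshold, *Hormad1* of 1.12, *Meiob* of 2.60, *Hfm1* of 1.83 and *Spdya* of 2.31. The differences between the SKO and WT changes of these 5 genes ran from -0.50 to 0.41 with the lowest adjusted p, 0.429, for *Sycp3*. Among falls, *Ddhd2* had -1.70 in WT, *Ctcfl* -1.62, *Twf1* -1.91, *Golt1b* -1.61 and *Rec8* -1.36. *Dmc1* had a log2 fold change of 0.999 in WT (adjusted p = 0.00601) and 0.58 in SKO, and the difference of -0.45 had an adjusted p of 0.379. A call in 1 genotype alone did not show a difference between them. The WT libraries held more spermatid reads, such as 211 to 852 reads of the protamine gene Prm1 in SPG and 1490 to 2840 in PreL, against at most 8 in any SKO library, and their part in the WT changes was not tested.

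**Figure D4:**
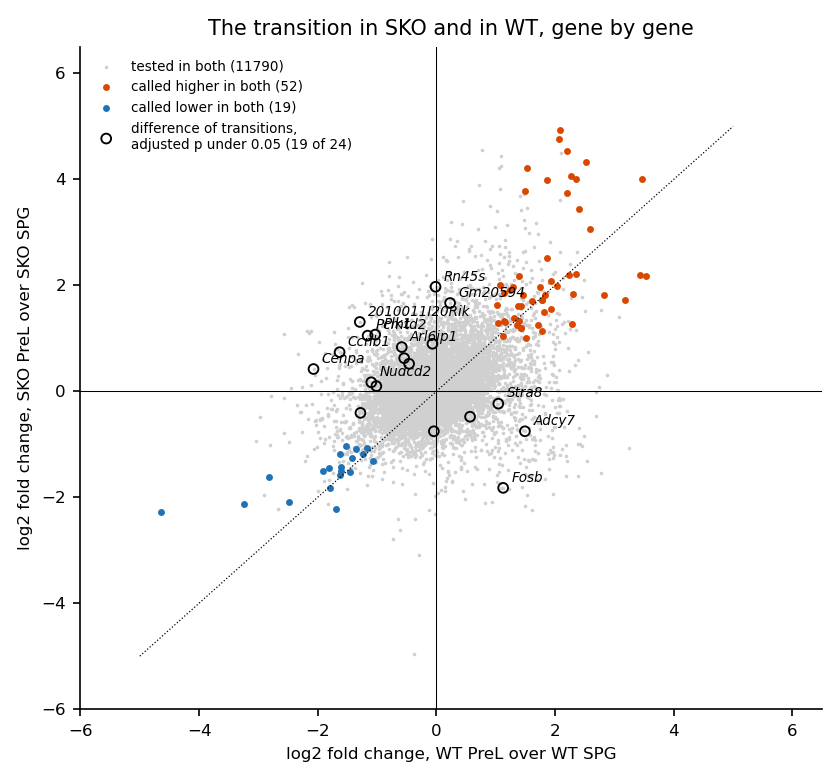
Log2 fold change of PreL over SPG in WT (horizontal axis) and in SKO (vertical axis) for the 11790 genes tested in both. Genes with a tested difference between the transitions are marked, among them *Cenpa* and *Ccnb1* with positive values in SKO and negative values in WT.

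The transitions themselves differed for 24 genes, 0.184% of 13079 tested with an interaction term over the 12 libraries at an adjusted p under 0.05, of which 19 had the more positive change in SKO. In all 12 fits that left out 1 library, and with edgeR's quasi-likelihood test, 3 genes kept this difference: *Cenpa*, *Ccnb1* and *Arl6ip1*. *Cenpa*, the histone H3 variant of centromeres, had 2136, 2410 and 2872 reads in SKO SPG and 3245, 3384 and 3560 in SKO PreL. In WT it had 5827, 4211 and 5108 reads in SPG and 1303, 934 and 857 in PreL, so that the stages moved apart in opposite directions. Its log2 fold changes were 0.42 in SKO and -2.07 in WT, and the difference was 2.46 (SE 0.19, adjusted p = 1.31e-05). *Ccnb1*, cyclin B1 of the CDK1 kinase, had 2448, 2708 and 3880 reads in SKO SPG and 4793, 4882 and 5639 in SKO PreL. In WT it had 4704, 3946 and 4681 reads in SPG and 1446, 1070 and 1171 in PreL, and the difference was 2.34 (SE 0.20, adjusted p = 2.03e-05). *Arl6ip1*, a protein that shapes the endoplasmic reticulum, had 3094, 2469 and 3350 reads in SKO SPG and 5264, 5644 and 5394 in SKO PreL, with log2 fold changes of 0.83 in SKO and -0.58 in WT and a difference of 1.39 (adjusted p = 0.00651). *Plk1* and *Ccnb2*, a mitotic kinase and cyclin B2, had differences of 2.07 (adjusted p = 0.0471) and 1.08 (adjusted p = 0.0483). In WT, 3 of the tested G2 and M phase genes rose and 4 fell, beside 2.54% and 1.21% of all genes tested in WT. Spermatid reads were higher in WT than in SKO libraries, as given above. Late spermatocyte genes summed to 711 to 2430 RPM in WT PreL and 147 to 168 in SKO PreL. In SPG these sums overlapped, at 318 to 521 RPM in WT and 122 to 348 in SKO. The part of spermatid and late spermatocyte reads in these differences was not tested.

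**Figure D5:**
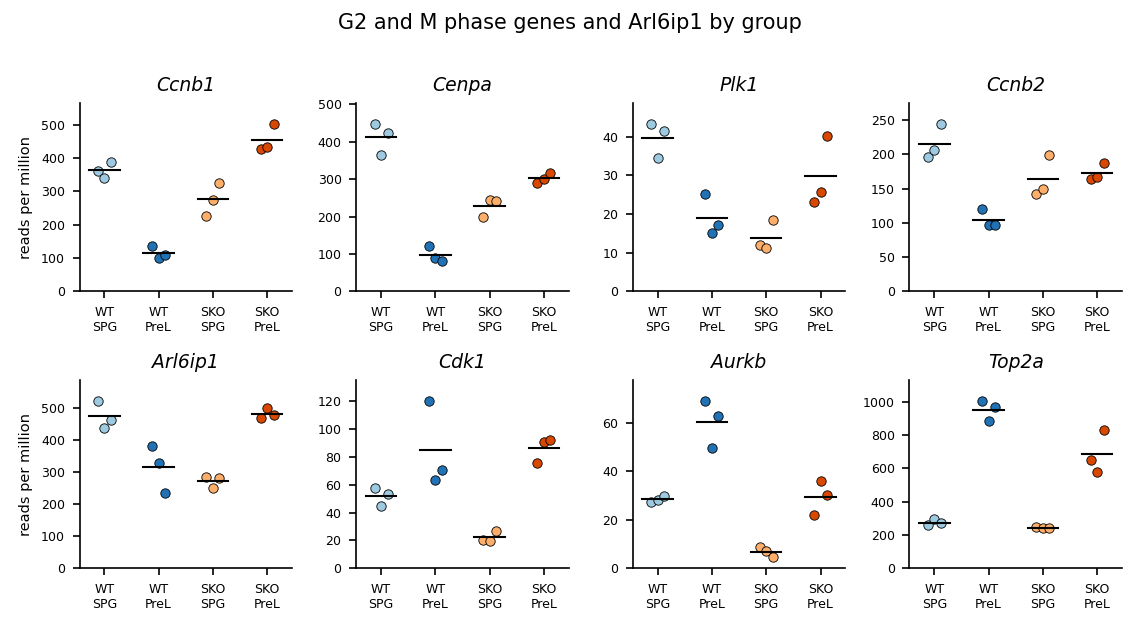
RPM of G2 and M phase genes in each library (dots) with the group mean (line), on linear axes from 0. *Cenpa* and *Ccnb1* were higher in PreL than in SPG in SKO and lower in PreL than in SPG in WT.

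*Stra8* was the meiotic regulator with a tested difference. In WT it had 5057, 3151 and 3861 reads in SPG and 7245, 6322 and 7413 in PreL, a rise of 1.04 on the log2 scale, against the -0.23 of SKO. The difference was -1.31 (SE 0.21, adjusted p = 0.0339), and it could not be told apart from the *Stra8* knock-in allele of the SKO mice. Whether the WT mice carry that allele is not given in the labels. *Fosb* had the most negative difference, -3.0 (adjusted p = 0.0483), with 2, 6 and 7 reads in WT SPG and 26, 20 and 10 in WT PreL. With edgeR, a pseudocount of 1 or the replicate block, 0 genes had a more negative change in SKO, so neither difference was called there. Called in opposite directions were 2 genes, *2010011I20Rik* and *Pcmtd2*, both higher in SKO PreL and lower in WT PreL. Their SKO rises (limma adjusted p = 0.0427 and 0.0494) were each called in 1 of 6 fits that left out a library. *Pcmtd2*, a protein of the isoaspartate methyltransferase family, had 99, 96 and 185 reads in SKO SPG and 254, 329 and 224 in SKO PreL, and 288, 268 and 267 in WT SPG and 141, 95 and 77 in WT PreL.

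The called genes lay on every autosome and on the X chromosome. The X chromosome held 532 of the 12783 placed genes tested, of which 21 rose (3.95%, against 1.63% of all placed genes) and 8 fell (1.5%, against 0.962%). The X-linked genes that rose included *Tsx*, *4933402E13Rik*, *1700018G05Rik*, *1700011M02Rik* and *Etd*, all 5 of them among the 10 largest rises named above. On GRCm38, *Sycp3* lies at chr10:88459569-88473236 on the plus strand, *Ddhd2* at chr8:25725346-25754596 on the minus strand, *Ccnb1* at chr13:100778650-100786570 on the minus strand, *Cenpa* at chr5:30666777-30674830 on the plus strand and *Stra8* at chr6:34920163-34939344 on the plus strand, all protein-coding genes.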

How the data were processed

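RNA had been measured by Smart-seq2, in which oligo(dT)-primed cDNA is amplified and strand is lost. Per the study's methods and the labels, the authors mapped reads to mm10 with TopHat2 2.1.1 (mm9 is also listed), counted uniquely mapped reads with HTSeq 0.11.2 and multiplied each library by a factor set from ERCC spike-in and cell input. The authors deposited these calibrated counts, a signal value per gene and library. Whole reads were recovered by dividing each library by its smallest value above 0. This gave whole numbers, within 0.01, for 100% of values.

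Size factors were set by the median of ratios over the libraries compared, and each library was divided by its factor. Genes averaging 10 or more recovered reads entered the fit, and log2(value + 10) was tested with limma 3.58.1 (R 4.3.3, mean-variance trend, Benjamini-Hochberg adjustment), because calibrated values are not counts. The threshold was an adjusted p of 0.05 and an absolute log2 fold change of 1. The difference between genotypes was an interaction term with no fold threshold. Totals were compared by exact permutation. Alternatives were the calibrated values without rescaling, TMM, pseudocounts of 1 and 50, other filters, edgeR 4.0.16 and DESeq2 1.42.0 on recovered reads, the leaving out of single replicates, a replicate block, a fit without fold threshold and 1 fit over the 17 libraries. The scripts were tested on simulated data.

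Named were *Nat10*, landmark genes of spermatogonia and meiosis, the 10 largest changes in each direction among non-overlapping called genes averaging 100 or more reads, up to 3 called members of each of 25 lists in each direction (the most abundant where none was called), and the 5 largest differences of the transitions among called genes. The comparison and these lists were chosen with earlier results of these data known, and 5 further lists and some genes after their values were seen, as said beside them. A list of mitochondrially encoded genes had 0 members in the table. Some genes are not reported here. Standard errors rest on the spread between libraries, and floors of 3 reads cover counting error only. Promoters came from RefSeq (GRCm38.p6) and gene positions from GENCODE for GRCm38.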

Additional observations from a re-analysis of the deposited data

Results flagged for a closer look

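The change from SPG to PreL differed between SKO and WT by the interaction term for 24 genes, given here as the SKO change minus the WT change on the log2 scale, with adjusted p-values of limma between 1.31e-05 and 0.0483. Among cell cycle genes the difference was 2.46 for *Cenpa*, 2.34 for *Ccnb1*, 2.07 for *Plk1* and 1.08 for *Ccnb2*. Among blood cell genes it was 3.85 for *Vpreb3*, 3.66 for *Igll1*, 3.50 for *Ly6d*, 3.84 for *Cma1* and 3.18 for *Cpa3*, fitted values that depend on the pseudocount because these genes had at most 1 read in each SKO SPG library. *Rn45s* had 1.95 and *Gm20594* had 1.40.

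Further positive differences were 2.57 for *2010011I20Rik*, 2.18 for *Pcmtd2*, 1.39 for *Arl6ip1*, 1.24 for *Nudcd2*, a dynein cofactor, 1.14 for *Sacm1l*, a phosphoinositide phosphatase, 0.95 for *Zmym3*, a zinc finger protein, 0.93 for *Chchd2*, a mitochondrial protein, and 0.84 for *Jkamp*. Negative differences were -0.74 for *Chmp2a*, a membrane-remodelling ESCRT-III subunit, -1.08 for *Hrsp12*, -1.31 for *Stra8*, -2.28 for *Adcy7*, an adenylate cyclase, and -3.0 for *Fosb*. In WT, *Nudcd2* had 809, 603 and 719 reads in SPG and 278, 252 and 308 in PreL, whereas in SKO it had 548, 583 and 595 in SPG and 642, 778 and 599 in PreL. *Adcy7* had 157, 140 and 181 reads in SKO SPG and 98, 97 and 88 in SKO PreL, against 45, 56 and 35 in WT SPG and 113, 100 and 155 in WT PreL.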

How the results depend on the processing

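The depth limited genes with few reads, such as *Gfra1*, and with 3 libraries a group leaving out 1 also lowered the power of the test. Genes rising and falling in SKO numbered 426 and 151 with 1 fit of all 17 libraries, 431 and 219 with DESeq2, 5657 and 30 on the calibrated scale, 382 and 342 without the fold threshold, 149 and 70 with no filter, 190 and 114 with edgeR, 78 and 38 with the replicate block, 95 and 61 without SKO PreL 1 and 2 (chosen after seeing the data), and from 61 to 366 and 42 to 118 with 1 replicate left out. Of the 210 rises and 123 falls, DESeq2 also called 207 and 123, edgeR 166 and 105. The WT numbers were 488 and 246 with all 17 libraries, 509 and 222 with DESeq2, 332 and 95 on the calibrated scale, 540 and 382 without the fold threshold, 97 and 47 with no filter, and from 78 to 265 and 27 to 140 with 1 replicate left out. Genes with the more positive and more negative change in SKO numbered 38 and 18 with all 17 libraries, 134 and 187 with DESeq2, 3 and 0 with edgeR, 5556 and 112 on the calibrated scale, 37 and 12 with no filter, 4 and 0 with a pseudocount of 1, 23 and 17 with a pseudocount of 50, 15 and 1 with TMM, 2 and 0 with the replicate block, and from 3 to 60 and 0 to 19 with 1 replicate left out. Genes called the same way in both genotypes, 71 in all, numbered 113 with DESeq2, 186 on the calibrated scale, 24 with no filter, 181 without the fold threshold, 46 with the replicate block and from 29 to 73 with 1 replicate left out. The ratio of totals was 1.04 for recovered reads and from 1.93 to 2.22 with 1 replicate left out. The calibrated scale shifts the median over all tested genes to 1.01 in SKO and 0.08 in WT, which by construction turns calls toward rises there; the cause of the other changes was not tested.

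Only numbers 1 and 3 were shared between SKO SPG and SKO PreL. The deviations of same-numbered libraries correlated at 0.077 and 0.034 across genes, so the samples share a number and no more is known of a pairing.

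On the calibrated scale the sign turned for the SKO changes of *Cbx3* (0.58), *Dmrt1* (0.52), *Dnmt3b* (0.87), *Egfl7* (0.67), *Kit* (0.22), *Mcam* (0.75), *Nat10* (0.49), *Sohlh1* (0.58), *Sohlh2* (0.62) and *Stra8* (0.81), and for the difference of *Chmp2a* (0.25). Of genes not called, the sign also turned for *Akr1cl*, to -0.88 with the replicate block, -2.08 without SKO PreL 1 and 2, -0.30 without SKO PreL 1, -0.58 without SKO PreL 2 and -0.19 without SKO SPG 4, where the fits that left out 1 replicate ran from -0.58 to 1.20. *Ccnd2* turned to -0.28 with the block, -0.67 without SKO PreL 1 and 2 and -0.085 without SKO PreL 2 (from -0.085 to 0.88 with 1 replicate left out), *Gfra1* to -0.19 with the block, *Dnmt3b* to 0.025 without SKO PreL 3 (from -0.36 to 0.025), and *Stra8* to 0.13 without SKO PreL 1 and 2. *Rarg* had 0 with DESeq2, -0.022 with edgeR, -0.12 with the block, -0.11 without SKO PreL 2 and -0.25 without SKO SPG 1 (from -0.25 to 0.37 with 1 replicate left out).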
